A study of Arabidopsis thaliana with 12 samples.

Results

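Among the transcripts of germinated Arabidopsis thaliana seeds, 72 genes that carry no name in the deposited expression table had far lower RNA levels after a brief exposure to abscisic acid (ABA), in wild type and in a splicing-factor mutant alike. They were chosen by measured values. The mean level of the 3 mock libraries had to be at least 1 cRPKM, and the ratio of mock to ABA, with 0.1 cRPKM added to both means, had to be at least 2.5 in each genotype. cRPKM is the deposited unit, reads scaled to sequencing depth and to a length, which need not be the annotated transcript length. The 72 genes, called members here, are 72 of 32389 genes with a value, and 0.816% of the 8820 unnamed genes that reached the mock level in both genotypes. Of the 9416 named genes at that level, 99 (1.05%) met the same ratios. The label of a strong drop holds unevenly, since 30 members had a ratio under 3 in at least 1 genotype and 19 had ratios of at least 4 in both.

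Wild type (WT) was Col-0, and sr34a-1 is a line with 1 mutant allele of SR34A (AT3G49430), which encodes a serine/arginine-rich splicing factor. Stratified seeds of both were grown on MS medium under constant white light for 44 h, then moved for 2 h to plain MS medium (mock) or to MS medium with 0.5 µM ABA, and RNA was taken from whole seedlings. The 4 groups, mock and ABA of either genotype, had 3 libraries each, which the labels call biological replicates without saying whether seed lots or plates differed. Each library held 61128187 to 83268758 counted reads. SR34A itself stood at 71.2 to 81.6 cRPKM in the 6 WT libraries and at 9.41 to 11.3 cRPKM in the 6 sr34a-1 libraries, as the labels require. In such bulk RNA, fewer cells of a type and less RNA per cell cannot be told apart.

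ABA is the hormone that plants make under drought and during seed maturation, and it holds back germination and the establishment of the seedling. Its receptors block a group of protein phosphatases, which frees kinases that activate bZIP transcription factors. These bind ABA response elements, whose core is ACGTG, and are best known for raising transcripts. Seedling establishment itself rests on cell expansion, on loosening of the cell wall and on the use of stored protein and oil. Many plant genes are known only from the family of their protein.

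RefSeq had a locus for each of the 72 identifiers. It listed 71 as protein coding and 1, AT1G32385, as a small nucleolar RNA, and it gave 7 of them a symbol or synonym other than a clone name. These 7 are GAT1_2.1 (AT1G15040), ABCG42 (AT4G15233), VTL5 (AT3G25190), SAUR5 (AT4G34810), SAUR76 (AT5G20820), RZPF34 (AT5G22920) and TIE4 (AT2G34010). The members lay on all chromosomes, with 17, 11, 15, 9 and 20 on chromosomes 1 to 5. Single-exon genes were more frequent than in the background: 29 of 72 (40.3%), beside 18.5% of 8805 unnamed and 15.6% of all 18169 annotated genes at the same mock level. The members ran from 1 to 25 exons, with a median of 2 exons. Their median transcript of 1370 bases was shorter than the 1651 bases of those unnamed genes.

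In mock, the mean level of the members ran from 1.09 to 394.9 cRPKM in WT, with a median of 4.12 cRPKM. After ABA the median was 1.19 cRPKM in WT and 0.985 cRPKM in sr34a-1. The ratio of mock to ABA had a median of 3.48 in WT and 3.56 in sr34a-1. It was larger in WT for 34 members and larger in sr34a-1 for 38. Over all 18236 genes at the mock level, the median log2 ratio of mock to ABA was 0.06 in both genotypes, against 1.80 and 1.83 for the members. In 70 of 72 members every mock library lay above every ABA library in both genotypes, which also held for 23.2% of the 18236 genes. These values restate the choice of the members and carry no test. Fitted to the counts, a fall of at least 2.5-fold was seen in 2.15% of 21256 genes in WT and in 2.45% in sr34a-1.

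**Figure D1:**
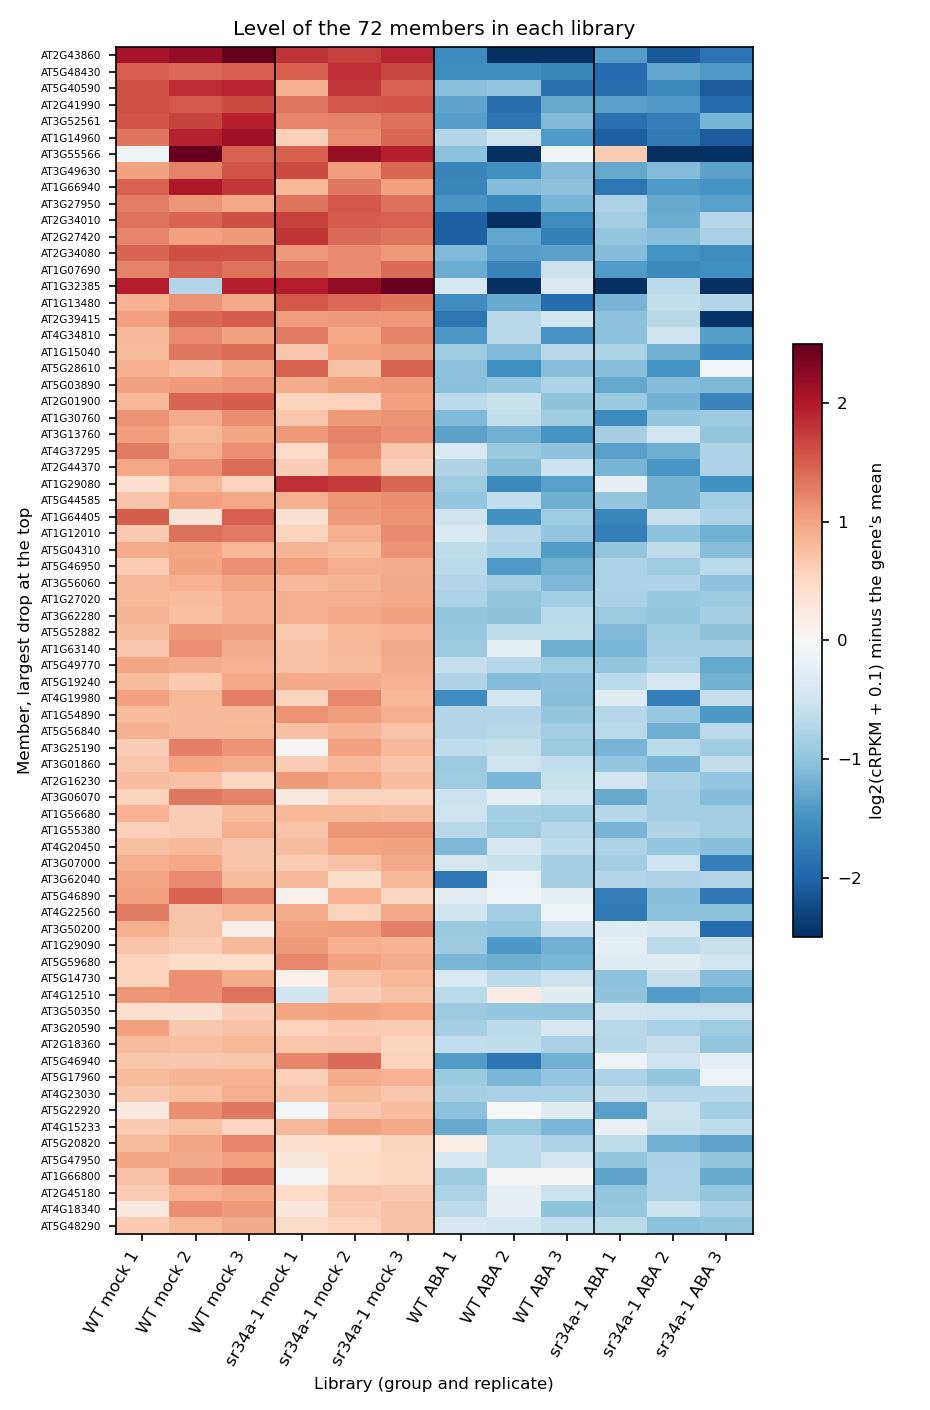
Level of each of the 72 members (rows, ordered by the smaller of their ratios in the genotypes) in each of the 12 libraries (columns), as log2(cRPKM + 0.1) minus the gene's mean. The 6 mock columns are red and the 6 ABA columns blue in nearly every row, and the pale or mixed rows AT3G55566 and AT1G32385 are the 2 members whose libraries overlap.

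At the edge of the rule, just inside the ratio of 2.5, stood AT2G45180, AT4G18340 and AT5G48290, with smaller ratios of 2.53, 2.52 and 2.51. Just outside stood AT1G11540, AT5G23350 and AT5G60520, with 2.49, 2.49 and 2.47.

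The 4 members with ratios of at least 8 in both genotypes code for a pectin lyase-like protein, an aspartyl protease, a C1 domain protein and a late embryogenesis abundant (LEA) protein. AT2G43860 belongs to the pectin lyase-like family, which holds enzymes that cut the pectin of cell walls (chromosome 2, 18162720 to 18164428 in TAIR10.1, minus strand, 4 exons). Its levels were 4.54, 5.02 and 6.19 cRPKM in WT mock, 3.77, 3.55 and 4.05 cRPKM in sr34a-1 mock, 0.27, 0.09 and 0.07 cRPKM in WT ABA, and 0.33, 0.16 and 0.21 cRPKM in sr34a-1 ABA. All 6 ABA libraries were near 0, with 5 to 27 reads against 321 to 538 in mock, and the ratio was 22.0 in WT and 11.7 in sr34a-1. With 1 cRPKM in place of 0.1 added to the means, its log2 ratios would be 2.45 and 1.96, so the size of this drop rests on the small ABA levels.

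AT5G48430, a putative aspartyl protease and so a protein-cutting enzyme, is a single-exon gene (chromosome 5, 19627634 to 19629167, minus strand). It had 5.31, 5.01 and 5.28 cRPKM in WT mock, 5.32, 6.65 and 6.03 cRPKM in sr34a-1 mock, 0.54, 0.55 and 0.52 cRPKM in WT ABA, and 0.40, 0.68 and 0.62 cRPKM in sr34a-1 ABA. The WT ABA libraries lay within 0.03 cRPKM of each other, and mock and ABA were far apart, with ratios of 8.33 and 9.15. AT5G40590, a member of the cysteine/histidine-rich C1 domain family (chromosome 5, 16251318 to 16252434, minus strand), went from 7.80 ± 0.892 to 0.863 ± 0.289 cRPKM in WT and from 5.99 ± 1.75 to 0.537 ± 0.106 cRPKM in sr34a-1 (SD, n = 3 each). AT2G41990 is annotated as a LEA protein (chromosome 2, 17527167 to 17528937, plus strand), a group named for genes that rise late in seed maturation and in drying tissue. Here it went the other way, from 8.46 ± 0.240 to 0.927 ± 0.223 cRPKM in WT and from 7.91 ± 0.785 to 0.880 ± 0.201 cRPKM in sr34a-1 (SD, n = 3 each).

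The 250 bases upstream of the transcript starts of AT2G43860, AT5G48430 and AT5G40590 are shown because these had the 3 deepest drops by the smaller of their ratios in the genotypes. They were read from the TAIR10.1 genome on the strand of the gene, at chr2:18164429-18164678 (minus), chr5:19629168-19629417 (minus) and chr5:16252435-16252684 (minus). Capitals mark TATAAA, the letters of a TATA box, and ACGTG, the core of the ABA response element, on either strand.
AT2G43860: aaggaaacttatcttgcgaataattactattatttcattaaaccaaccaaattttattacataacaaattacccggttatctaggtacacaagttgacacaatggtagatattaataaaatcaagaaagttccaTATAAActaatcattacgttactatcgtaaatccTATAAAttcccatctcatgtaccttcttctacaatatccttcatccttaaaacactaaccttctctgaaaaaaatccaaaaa
AT5G48430: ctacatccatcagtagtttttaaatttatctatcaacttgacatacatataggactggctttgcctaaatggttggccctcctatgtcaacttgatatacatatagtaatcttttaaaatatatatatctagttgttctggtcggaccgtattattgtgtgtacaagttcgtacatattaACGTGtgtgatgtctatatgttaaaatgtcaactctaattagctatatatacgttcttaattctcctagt
AT5G40590: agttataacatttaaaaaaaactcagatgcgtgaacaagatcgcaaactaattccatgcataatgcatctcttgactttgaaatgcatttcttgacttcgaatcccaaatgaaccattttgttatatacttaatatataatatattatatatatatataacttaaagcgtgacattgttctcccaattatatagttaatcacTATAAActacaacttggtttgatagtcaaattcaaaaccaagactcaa
The pectin lyase-like gene had TATAAA at 116 and 82 bases before the start, and the C1 domain gene had it at 48 bases before the start. Of the 3 upstream stretches, only that of the aspartyl protease gene held ACGTG, at 70 bases before the start.

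**Figure D2:**
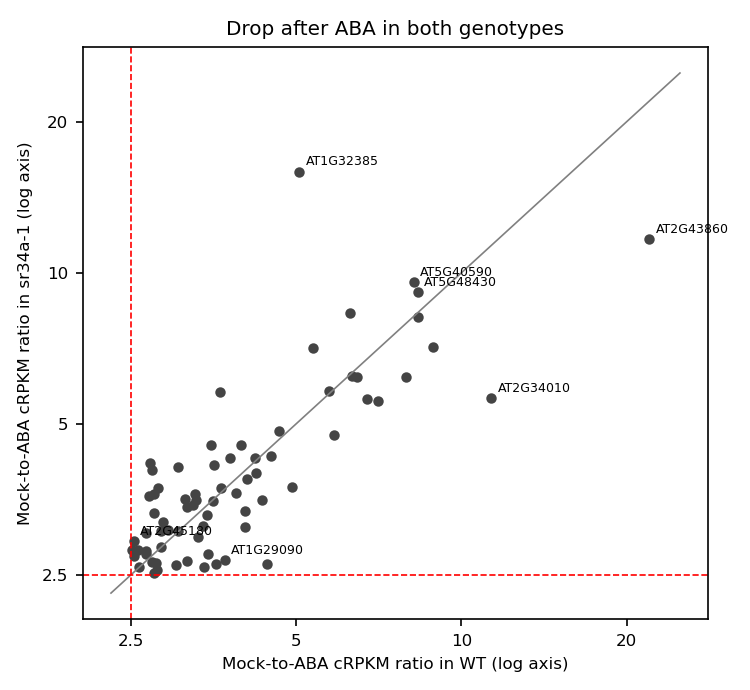
Ratio of mock to ABA, (mean cRPKM + 0.1)/(mean cRPKM + 0.1), in WT (x axis) and sr34a-1 (y axis), both on log axes, for the 72 members. Dashed lines are the ratio of 2.5 that chose the members and the grey line marks equal ratios; most points lie near the line, with AT2G43860 at 22.0 and 11.7, AT2G34010 at 11.3 and 5.63, and AT1G32385 at 5.07 and 15.9.

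Of the 12 members with the largest drops, 3 more are only annotated as uncharacterized or kinase-like proteins. AT3G52561, an uncharacterized protein, stood at 9.50 ± 1.26 and 6.85 ± 0.439 cRPKM in WT and sr34a-1 mock and at 0.980 ± 0.261 and 0.877 ± 0.259 cRPKM with ABA (SD, n = 3 each). AT1G66940, a kinase-like protein, had ratios of 7.94 and 6.18, and it overlaps AT1G66930 on the opposite strand, which had 0.755 cRPKM in mock. AT3G55566, whose annotated transcript has 99 bases, had 2 to 20 reads per mock library and 0 to 4 per ABA library, and its ratios of 6.31 and 6.22 are uncertain for that reason. The small nucleolar RNA AT1G32385, of 85 bases, had 1 to 11 reads in mock and 0 or 1 with ABA, too few for the count filter, so 71 members could be tested.

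AT2G34010, for which RefSeq lists the synonym TIE4, belongs to proteins that bind TCP transcription factors and carry an EAR motif, a short stretch known for repression. Its levels were 2.33, 2.51 and 2.80 cRPKM in WT mock and 2.99, 2.62 and 2.53 cRPKM in sr34a-1 mock. With ABA they were 0.13, 0.05 and 0.22 cRPKM in WT and 0.42, 0.30 and 0.48 cRPKM in sr34a-1. The genotypes overlapped in mock but not with ABA, where every sr34a-1 library lay above every WT library. Whether the genotypes differed in their drop was not tested, because the rule used the same means. AT3G49630, a 2-oxoglutarate-dependent oxygenase, and AT3G27950, a GDSL lipase, had mock means of 1.57 and 3.75 cRPKM over both genotypes, with smaller ratios of 6.19 and 5.74. AT3G49630 overlaps AT3G49640 on the opposite strand, which had 13.9 cRPKM in mock.

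At the other end of the scale, 3 members had more than 50 cRPKM as a mock mean over both genotypes, the cysteine protease AT1G29090, the lipid-transfer family protein AT2G45180 and AT1G27020. AT1G29090 (chromosome 1, 10162795 to 10164452, minus strand) had 363.5, 344.2 and 387.1 cRPKM in WT mock, 465.7, 414 and 402.6 cRPKM in sr34a-1 mock, 117.3, 81.7 and 95.9 cRPKM in WT ABA, and 188, 140.8 and 149.9 cRPKM in sr34a-1 ABA. The highest ABA library was still well under the lowest mock library, and sr34a-1 lay above WT in both treatments with no overlap. By the edgeR test described below, the difference passed with ABA (log2 fold change 0.69, adjusted p = 0.00111) but not in mock (0.23, adjusted p = 0.219). Averaged over treatments it passed as well (0.46, edgeR adjusted p = 0.00087). Whether the difference itself changed with the treatment was not tested. AT1G27020, which RefSeq calls only a plant protein (chromosome 1, 9378404 to 9380790, plus strand), was the steadiest of the 3, at 84.97 ± 3.36 and 90.4 ± 2.31 cRPKM in WT and sr34a-1 mock and at 25.8 ± 1.79 and 25.6 ± 1.16 cRPKM with ABA (SD, n = 3 each). The other members among the 8 highest were RZPF34 (AT5G22920), AT5G52882, AT2G34080, AT3G06070 and AT1G56680, with mock means over both genotypes of 43.2, 36.8, 32.1, 31.2 and 29.0 cRPKM. AT5G52882 is a P-loop nucleoside triphosphate hydrolase and AT1G56680 belongs to the chitinase family, whose enzymes cut the chitin of fungal walls.

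By the words of their RefSeq product, 14 members were uncharacterised, 24 fell in no class, and the largest classes with a function were cell wall and lipid with 7 members each, followed by proteases with 5. As a share of the unnamed genes at the same mock level these were 3.40% for cell wall, 2.82% for lipid, 2.63% for protease and 0.962% for uncharacterised, beside 0.816% for all unnamed genes. Receptor kinases gave 3 of 97 (3.09%) and auxin genes 2 of 53 (3.77%). Phosphatases had 0 members among 111 unnamed genes and glycosyltransferases 0 among 41. Peroxidases, cytochromes P450 and photosynthesis also had 0, but only 3, 8 and 11 unnamed genes at the mock level. With named genes counted too, 7 of 125 cytochrome P450 genes (5.6%) and 3 of 64 peroxidase genes (4.69%) met the thresholds, beside 0.938% of all genes. The shares are descriptions, and none was tested.

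Most proteases fell in a family called papain-type here, taken by product text that names papain or the cysteine proteinases superfamily. Papain-type enzymes are cysteine proteases known for breaking down protein in vacuoles and outside the cell, storage protein among it. This family, like the other families named here, was singled out after the products of the members had been read. Its 4 members, AT1G29090, AT2G34080, AT2G27420 and AT1G29080, were 13.3% of the 30 genes at the mock level that matched this text. Of these members, only AT1G29080 has a product name with papain in it. AT1G29080 and AT1G29090 lie close together on chromosome 1, and neither shared a stretch of 50 bases with the genome outside its own locus. AT2G34080 had 34.7, 38.4 and 37.98 cRPKM in WT mock and 26.3, 28.4 and 26.6 cRPKM in sr34a-1 mock, and 5.80, 4.80 and 4.91 cRPKM in WT and 5.86, 4.42 and 4.13 cRPKM in sr34a-1 with ABA. AT1G29080 had 2.47, 3.36 and 2.77 cRPKM in WT mock, 6.81, 6.46 and 5.19 cRPKM in sr34a-1 mock, 0.95, 0.54 and 0.66 cRPKM in WT ABA, and 1.60, 0.76 and 0.58 cRPKM in sr34a-1 ABA. Levels in mock thus differed widely within the family, and the ratios ran from 2.68 to 7.04.

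The C1 domain family had the most members of any family with a described domain. Its proteins carry a cysteine- and histidine-rich zinc-binding fold, and most plant members have no known role. The 6 members, AT5G40590, AT3G13760, AT3G07000, AT2G44370, AT1G55380 and AT5G17960, were 11.3% of the 53 C1 domain genes at the mock level, and no named gene of the family met the thresholds. Apart from AT5G40590 they had low levels, from 1.44 to 3.34 cRPKM as group means in mock, and ratios from 2.63 to 4.91. Each had a single exon, and they lay on chromosomes 1, 2, 3 and 5.

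The lipid-transfer and 2S albumin family consists of small secreted proteins with a conserved cysteine pattern, which bind lipids or, in seeds, store protein. Its 3 members were 1 highly and 2 moderately expressed genes, and with 2 named genes the family reached 13.2% of 38 at the mock level. AT2G45180 (chromosome 2, 18626188 to 18627157, plus strand) had 344.5, 406.7 and 433.5 cRPKM in WT mock, 312.7, 363.8 and 354 cRPKM in sr34a-1 mock, 128.5, 186.7 and 152.6 cRPKM in WT ABA, and 112.3, 128.8 and 111.7 cRPKM in sr34a-1 ABA. Mock and ABA did not overlap. AT4G12510 and AT5G46890 shared 51.8% and 26.8% of their 50-base stretches with the genome outside their own loci. How reads of such shared stretches were counted is not given in the sources used here, so the values of both genes are uncertain. Among the other lipid genes, AT1G14960 of the polyketide cyclase and lipid transport family went from 10.9 ± 2.82 to 1.66 ± 0.527 cRPKM in WT and from 6.60 ± 1.86 to 0.707 ± 0.0987 cRPKM in sr34a-1 (SD, n = 3 each).

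**Figure D3:**
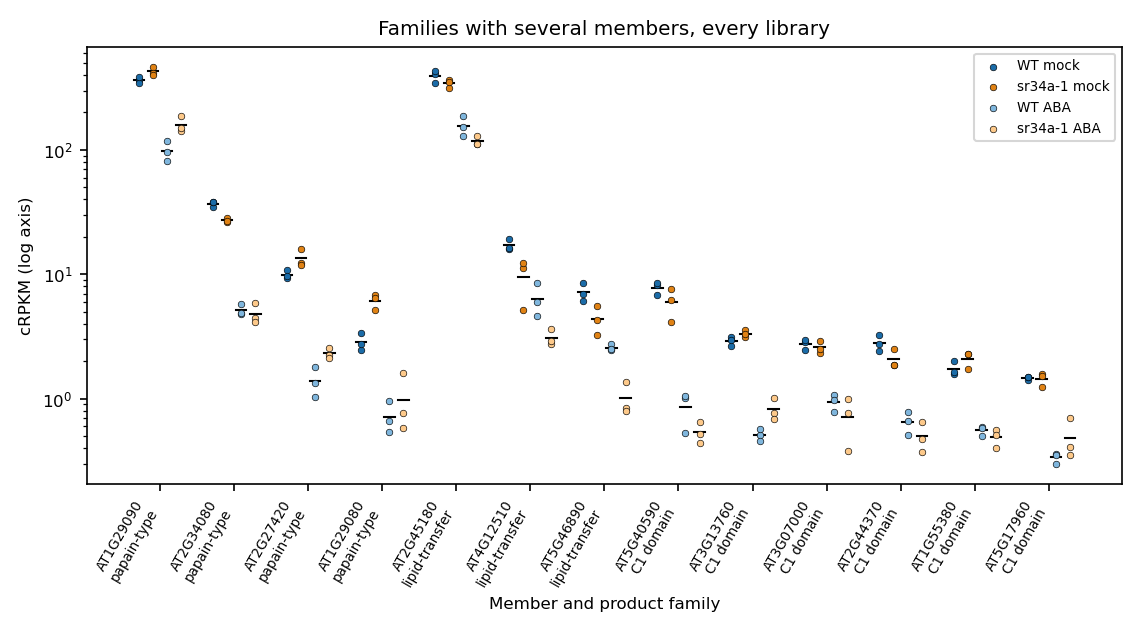
Level of the 4 papain-type, 3 lipid-transfer and 6 C1 domain members in every library, in cRPKM on a log axis, with 1 point per library and a bar at the mean of each group of 3. The mock points lie above the ABA points of the same gene, and the levels of AT1G29090 and AT2G45180 are the highest shown.

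Cell wall and growth genes came in small groups. Beside AT2G43860, the pectin lyase-like AT5G04310 had 2.79 ± 0.143 and 2.81 ± 0.354 cRPKM in WT and sr34a-1 mock and 0.717 ± 0.210 and 0.730 ± 0.140 cRPKM with ABA (SD, n = 3 each). The adjacent genes AT5G46940 and AT5G46950 code for inhibitors of invertases or pectin methylesterases, which restrain sugar cleavage or pectin modification. AT5G46950 went from 9.42 ± 1.67 to 2.26 ± 0.654 cRPKM in WT and from 9.49 ± 0.433 to 2.77 ± 0.210 cRPKM in sr34a-1 (SD, n = 3 each). The SAUR proteins promote cell expansion downstream of auxin, and both SAUR members had moderate levels. SAUR5 (AT4G34810) had 6.23 ± 0.785 and 7.03 ± 0.832 cRPKM in mock and 1.31 ± 0.459 and 1.56 ± 0.499 cRPKM with ABA, in WT and sr34a-1 (SD, n = 3 each). SAUR76 (AT5G20820) had ratios of 2.58 and 2.80.

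Among regulators and carriers, levels were mostly low. The 3 leucine-rich repeat kinases AT5G49770, AT5G59680 and AT4G20450, of a family of cell-surface receptors, had mock means over both genotypes of 2.26, 1.77 and 1.55 cRPKM and smaller ratios of 3.14, 2.67 and 2.76. RZPF34, a RING-type zinc finger protein of a kind that often acts as a ubiquitin ligase, varied most among the higher genes, with 30.3, 57.3 and 63.4 cRPKM in WT mock and 24.2, 40.6 and 43.4 cRPKM in sr34a-1 mock. Replicate 1 was the lowest of its group in all 4 groups for this gene, with 12.4 cRPKM in WT ABA and 9.89 cRPKM in sr34a-1 ABA. ABCG42, an ATP-driven membrane pump, shared 10.3% of its 50-base stretches with the genome outside its own locus. It overlaps AT4G15230 on the same strand, which had 24.4 cRPKM in mock. The level of ABCG42, 3.71 ± 0.246 cRPKM in WT mock (SD, n = 3), is thus uncertain. VTL5, of the vacuolar iron transporter family, had ratios of 3.32 and 2.98. GAT1_2.1, a glutamine amidotransferase-like protein and so of nitrogen metabolism, had ratios of 4.21 and 4.27, and it overlaps AT1G15030 on the opposite strand, which had 26.7 cRPKM in mock. The F-box gene AT2G39415 had ratios of 4.66 and 4.84, the GMC oxidoreductase AT3G56060 had 3.45 and 3.30, and AT5G28610, annotated as similar to an RNA helicase, had 4.23 and 3.99.

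Several members sat beside other genes that met the same thresholds. This held for 9 members (12.5%), counting 3 loci to each side, and 4 of these 9 are member pairs counted for each other. Among 18169 genes at the mock level it held for 3.31%, and no test was made. The other neighbours were IAA34, EARLI1, BAHD1, ABCG8 and BGAL4. AT5G47950, a BAHD-type acyltransferase gene by its HXXXD product name (chromosome 5, 19417020 to 19418657), lies near the thalianol genes, which make a triterpene of Arabidopsis roots. This stretch, chosen after its values were seen, ends with THAS1, the thalianol synthase, at 19461706. In WT, the ratio of mock to ABA was 2.79 for AT5G47950, 6.71 for BAHD1, 4.56 for CYP705A5, 3.78 for CYP708A2 and 5.78 for THAS1. In sr34a-1 the same genes had 2.56, 4.71, 4.82, 3.80 and 6.89. Between them, RABA4C and AT5G47970 had ratios of 1.09 and 1.20 in WT, so the drop was not shared by all genes of the stretch.

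The genotype was not part of the choice, so the difference between sr34a-1 and WT could be tested, although the same libraries chose the members by their ratios. In mock, 12 of 71 members differed (16.9%), 4 higher and 8 lower in sr34a-1, by the quasi-likelihood test of edgeR at a Benjamini-Hochberg adjusted p under 0.05. Of all 21256 genes 16.4% did. With ABA, 17 members differed (23.9%), 9 higher and 8 lower, beside 22.1% of all genes. Averaged over both treatments, 24 members differed (33.8%), 10 higher and 14 lower, beside 33.9% of all genes. Each of these shares, taken in either direction, is near the background. Whether the members as a group differed between the genotypes was not tested. The median log2 fold change of the members was -0.10 in mock, -0.12 with ABA and -0.11 averaged, beside 0.01, 0.00 and 0.01 over all genes. By direction, 5.63% of the members tested were higher and 11.3% lower in mock, 12.7% and 11.3% with ABA, and 14.1% and 19.7% averaged. Of all genes, 8.42% were higher and 7.99% lower in mock, 11.1% and 11% with ABA, and 17.9% and 16% averaged.

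The replicate numbers were taken to pair the libraries of the genotypes, from weak correlations between same-numbered libraries. The counts above come from a fit without this pairing. When the number entered the fit as a replicate block, 19 members differed in mock, 5 higher and 14 lower, beside 25.3% of all genes. The count in mock also rested on single libraries, being 5 without WT mock replicate 2, 6 without WT mock replicate 3 and 6 without sr34a-1 mock replicate 1. The share of all genes fell as well in these fits, to 9.05%, 9.54% and 8.82%. With ABA the count of members was 11 without WT ABA replicate 2 and 9 without sr34a-1 ABA replicate 3, beside 14.5% and 14.1% of all genes. Of the averaged calls, 22 of 24 were kept under every alternative tried, the exceptions being AT5G40590 and AT5G48290.

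Tissue markers moved with the genotype as well. The summed level of 9 seed storage and oil body genes was 82.95 to 122.4 cRPKM in WT mock, 197.8 to 277 cRPKM in sr34a-1 mock, 236.5 to 316 cRPKM in WT ABA and 505.8 to 757.2 cRPKM in sr34a-1 ABA. That of 10 photosynthesis genes was 17280 to 19910, 10330 to 12710, 16550 to 20030 and 10370 to 11300 cRPKM in the same order. Sums of 10 root hair genes were 478 to 526.1, 599.6 to 621.9, 515.7 to 577 and 561.7 to 608.3 cRPKM, and sums of 6 xylem genes 62.4 to 63.9, 69.0 to 81.9, 64.6 to 68.6 and 77.5 to 81.0 cRPKM. No gene of these lists was at 0 in all libraries. Seed storage sums were thus higher in both sr34a-1 groups than in WT of the same treatment, and photosynthesis sums lower. The part of these tissues in the genotype differences of the members was not tested.

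Differences in both treatments, in the same direction, were found for 9 members, 3 higher and 6 lower in sr34a-1, and for 0 members in opposite directions. Of all 21256 genes 11.6% did so in the same direction, so 9 of 71 members is near the background. By the alternatives of the genotype fits, which were applied to this count after the data were seen, it was 14 with the replicate block and 6 by limma on cRPKM. It was 3 without WT mock replicate 2, without WT mock replicate 3 or without sr34a-1 mock replicate 1, 5 without sr34a-1 mock replicate 2 or without WT ABA replicate 2, and 4 without sr34a-1 ABA replicate 3. Of the higher ones, AT5G59680, a leucine-rich repeat kinase, had 1.5, 1.38 and 1.37 cRPKM in WT mock, 2.37, 2.06 and 1.96 cRPKM in sr34a-1 mock, 0.39, 0.36 and 0.39 cRPKM in WT ABA, and 0.77, 0.77 and 0.67 cRPKM in sr34a-1 ABA. The genotypes did not overlap in either treatment, and the averaged log2 fold change was 0.77 ± 0.09 (SE; edgeR adjusted p = 1.37e-05). AT3G50350, annotated as a putative membrane insertase with a domain of unknown function, had 12.3, 12.1 and 14.2 cRPKM in WT mock against 18.4, 18.6 and 18.3 cRPKM in sr34a-1 mock. With ABA it had 4.91, 4.73 and 4.67 cRPKM in WT and 6.75, 6.46 and 6.47 cRPKM in sr34a-1. Again no libraries overlapped, with an averaged log2 fold change of 0.48 ± 0.06 (SE; edgeR adjusted p = 5.07e-05). The papain-type protease AT2G27420 was higher by 0.57 ± 0.12 on the log2 scale (SE; edgeR adjusted p = 0.0016), but its call in mock was lost in 10 of 18 alternatives.

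The 6 lower members were the lipid-transfer family genes AT5G46890 and AT4G12510, the lipid transport family gene AT1G14960, AT1G66800, AT3G06070 and AT5G47950. AT5G46890 had 6.14, 8.52 and 6.95 cRPKM in WT mock, 3.25, 5.54 and 4.29 cRPKM in sr34a-1 mock, 2.47, 2.75 and 2.5 cRPKM in WT ABA, and 0.84, 1.37 and 0.80 cRPKM in sr34a-1 ABA. All sr34a-1 libraries lay under those of WT in the same treatment, and the averaged log2 fold change was -1.04 ± 0.18 (SE; edgeR adjusted p = 0.000506). AT5G47950, the acyltransferase gene near the thalianol genes, had 7.45, 7.29 and 7.66 cRPKM in WT mock against 4.54, 5.33 and 5.49 cRPKM in sr34a-1 mock, and 2.82, 2.31 and 2.70 cRPKM against 1.87, 2.09 and 1.86 cRPKM with ABA. Its libraries did not overlap either, with an averaged log2 fold change of -0.49 ± 0.07 (SE; edgeR adjusted p = 9.68e-05). The remaining 4 had averaged log2 fold changes of -0.99 for AT1G14960, -0.95 for AT4G12510, -0.89 for AT1G66800, an NAD(P)-binding Rossmann-fold protein, and -0.63 for the uncharacterized AT3G06070. Their adjusted p-values in the same edgeR fit were 0.00161, 0.00285, 0.00237 and 0.000871. In single treatments each of these 4 lost its call under some alternatives, among them AT4G12510 in mock in 10 of 18. AT5G46890 lost its call in mock in 4 of 18, with a highest adjusted p of 0.172 among the alternatives.

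**Figure D4:**
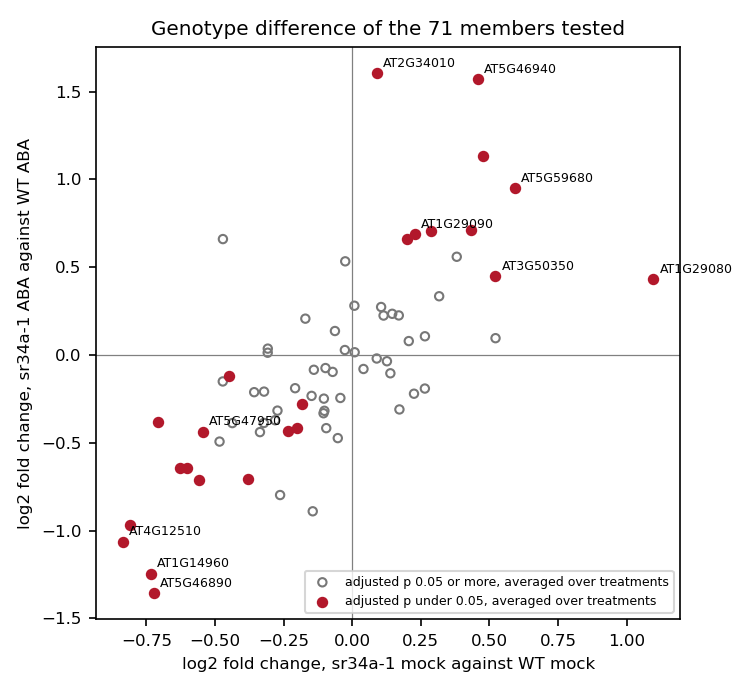
Log2 fold change of sr34a-1 against WT in mock (x axis) and with ABA (y axis) for the 71 members tested by edgeR. Filled points are the 24 members with an adjusted p under 0.05 averaged over treatments; 10 of them were higher and 14 lower, with AT5G46890 at -0.72 and -1.36 and AT5G59680 at 0.59 and 0.95.

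Families did not always go one way between the genotypes. Values in this paragraph are averaged over treatments unless a treatment is named, and a member that passed averaged need not pass in each treatment. Of the 4 papain-type proteases, AT1G29080, AT1G29090 and AT2G27420 were higher in sr34a-1, by averaged log2 fold changes of 0.76, 0.46 and 0.57, and AT2G34080 was lower, at -0.28. Their edgeR adjusted p-values were 0.0101, 0.00087, 0.0016 and 0.00822. In single treatments, AT1G29080 and AT2G34080 passed in mock only, AT1G29090 with ABA only and AT2G27420 in both. All 3 lipid-transfer members were lower, AT2G45180 with a log2 fold change of -0.31 (edgeR adjusted p = 0.00756). Of the 6 C1 domain members, AT3G13760 was higher (log2 fold change 0.43, edgeR adjusted p = 0.00541), AT5G40590 was lower (-0.54, edgeR adjusted p = 0.0347, lost in 7 of 17 alternatives), and the other 4 did not pass the test. Of the invertase or pectin methylesterase inhibitor pair, AT5G46940 was higher, by 1.01 (edgeR adjusted p = 0.00454), while its neighbour AT5G46950 had 0.14 (edgeR adjusted p = 0.431). With ABA, AT5G46940 was higher by 1.57 (edgeR adjusted p = 0.0107), but on only 5 to 24 reads per library. In mock it had 0.46 and did not pass (edgeR adjusted p = 0.276). AT2G34010 was higher by 0.85 averaged and by 1.61 with ABA, where its adjusted p in edgeR was 0.00578. ABCG42 (AT4G15233) was higher by 0.50 and SAUR76 (AT5G20820) lower, at -0.64, with edgeR adjusted p-values of 0.00103 and 0.00941. ABCG42, whose values are uncertain for the overlap given above, passed with ABA but not in mock (edgeR adjusted p = 0.00304 and 0.127). SAUR76 passed in neither mock nor ABA alone (edgeR adjusted p = 0.0966 and 0.0608).

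Genes chosen by the same thresholds in other ways gave other shares in the same genotype tests, without a test between the lists. Of the 99 named genes with the same drop, 28.3% differed in mock, 37.4% with ABA and 46.5% averaged. Of the 184 unnamed genes that rose by the same ratio, 52.2%, 63% and 69% differed, with a median averaged log2 fold change of 0.57. All lists were chosen on the libraries that also give the genotype difference.

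SR34A acts in splicing, so the splicing events of the members were examined too. The level of an event is its PSI, the percent of reads that include a given exon, intron or splice site. The deposited table held 415 events in 44 members, of which 190 had at least 10 reads in every library. With a mean PSI between 2 and 98, 23 events in 14 members could be tested by limma. Between sr34a-1 and WT, averaged over treatments, 0 of the 23 events passed an adjusted p under 0.05, and 1 had an unadjusted p under 0.05. Among all 27995 events tested, 2.19% passed. The event with the lowest p was an intron of RZPF34 (AT5G22920, chromosome 5, 7666308 to 7666391), kept in 4.68% and 3.71% of reads in WT and sr34a-1 mock and in 6.64% and 2.304% with ABA. Its limma p was 0.0451 and its adjusted p 0.396, and 1 WT ABA library, at 11.9%, stood above all others. With no limit on mean PSI, 2 of 190 events passed, beside 1.61% of all 259435, an acceptor of AT2G27420 and an exon of AT4G15233, both with a mean PSI of 100 in all groups, so neither showed a visible change.

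The promoters of the members, from 250 bases before to 50 after the annotated start in TAIR10.1, were searched on both strands for short motifs. TATAAA was present in 49 of 72 (68.1%), beside 51.1% of 18168 genes at the mock level. TTGAC, the core of the W-box bound by WRKY factors, was present in 46 (63.9%), beside 50.6%. ACGTG was present in 15 (20.8%), beside 28.3%, and CACGTG, the G-box, which contains ACGTG, in 1 (1.39%), beside 9.15%. TGGGCC, a site of TCP factors, was present in 4 (5.56%), beside 19.9%. The 99 named genes with the same drop had TGGGCC in 1.01%, TATAAA in 58.6%, TTGAC in 52.5%, ACGTG in 30.3% and CACGTG in 8.08%. The share with TTGAC was thus higher than among the expressed genes in members but close to theirs in the named genes, and TGGGCC was less frequent in both lists than among the expressed genes.

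Other motifs had shares close to those of the expressed genes or were rare. TGTCTC, the auxin response element, was in 13.9% of members beside 13.5%, GATAAG, the I-box, in 12.5% beside 14.9%, and AAACCCTA, the telo-box, in 4.17% beside 5.69%. TTTCCCGC, an E2F site, and AAAATATCT, the evening element, were in 0 members, beside 0.859% and 2.96%. The median GC content of the windows was 30.3% for members and 32% for the expressed genes, and the part of base composition in the shares of AT-rich letters was not tested. A match is a run of letters and not a bound site, and these shares were not tested.

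**Figure D5:**
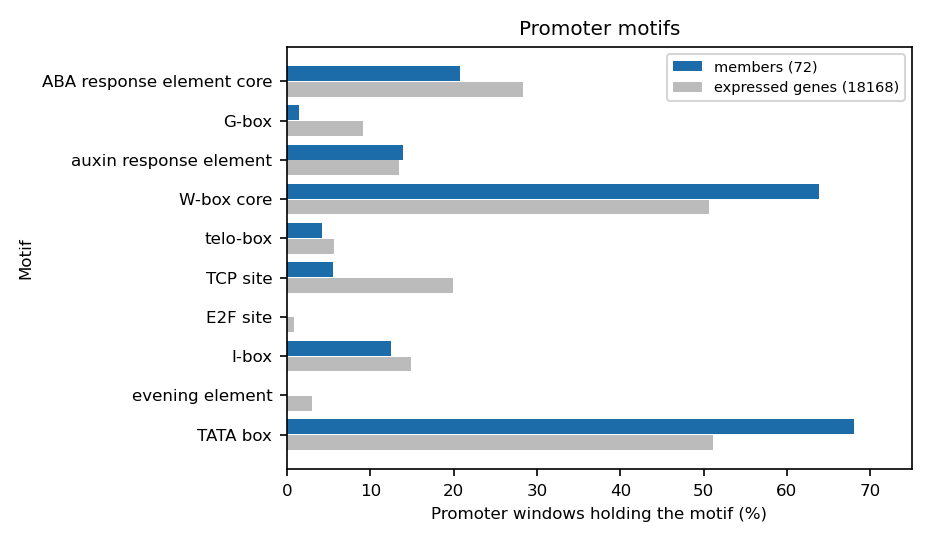
Share of promoter windows, in percent, that hold each of the 10 motifs on either strand, for the 72 members (blue) and the 18168 genes at the same mock level (grey). Bars of members are longer for the TATA box (68.1% beside 51.1%) and the W-box core (63.9% beside 50.6%) and shorter for the G-box and the TCP site.

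Reads of some members could belong to other genes. The 50-base stretches of each spliced transcript were sought in the genome outside its own locus, on either strand. Of the 72, 59 shared no such stretch, and 4 shared more than 10%, AT1G63140 with 55%, AT4G12510, AT5G46890 and AT4G15233. In all, 7 members overlap another annotated locus, 6 of them on the opposite strand, and whether the counting used strand is not given in the sources used here. The largest such overlap in level was AT3G62040, whose mock means of 1.63 and 1.32 cRPKM stand beside 727 cRPKM for AT3G62030 on the opposite strand.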

How the data were processed

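Polyadenylated RNA was sequenced from 12 libraries in 4 groups of 3, assigned by their titles. The authors deposited raw read counts per gene and library, not normalized, and cRPKM values, an RPKM scaled to length and depth, per the file headers. They also deposited a splicing table that gives, per the file headers, the percent spliced in of each event, with a quality field holding its reads. The build is TAIR 10, per the submitters' processing notes. Aligner and counter are not given in the sources used here. The number of unmatched columns was 0.

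The rule was applied to the deposited cRPKM. Members, product classes, motifs, marker lists and tests were chosen with earlier results of these data known. Named in the text were the 12 largest drops, the 8 highest members, members differing in both treatments, the 3 genes on each side of the threshold, the highest member of each product class, and members with a called splicing event, of which there were 0. Other members were named by family or after their values were seen. Short class words such as ERF were matched at word starts only, a change made after the table of genes was seen.

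Genotype differences were tested on the counts with edgeR 4.0.16 in R 4.3.3 (quasi-likelihood, TMM factors 0.976 to 1.03, filterByExpr, 21256 genes, 71 members). Splicing was tested with limma 3.58.1 on log2 ratios of inclusion to exclusion reads with 0.5 added, over 27995 events. The first of alternative sites was left out, which kept 314071 of 388521 events. DESeq2 1.42.0 and limma on cRPKM were alternatives. The edgeR fit and the limma fit of splicing events were tested on simulated data, and these alternatives were not. P-values were adjusted over all features. Deviations from the group means in same-numbered libraries of the genotypes correlated by 0.316, 0.117 and 0.134 in mock and by 0.149, 0.137 and 0.100 with ABA, each over 0.1, so the numbers were taken to pair them. For mock replicate 2 a differently numbered library correlated more (0.133), and between treatments of a genotype the same numbers gave -0.026 to 0.19. Replicates differed beyond counting noise (chi-square per degree of freedom 4.23 to 19.4).

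Product names, positions and promoters came from RefSeq TAIR10.1, whose sequence gave GT or GC at the start and AG at the end of 99.83% of 115163 introns in the splicing table.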

Additional observations from a re-analysis of the deposited data

How the results depend on the processing

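The number of members depended on the thresholds. It was 30 with a pseudocount of 1, 135 with a ratio of at least 2 and 42 with a ratio of at least 3, beside 72. It was 59 with the ratio taken on CPM, 92 with a mock level of 0.5 cRPKM, and 68 to 76 when single libraries were left out, with 55 members in all of those sets. A pseudocount of 1 lowers the log2 ratio of any member by arithmetic. Over all settings, 24 recomputed ratios of named members moved by more than the spread between replicates and 296 did not.

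The number of members that differed between the genotypes in mock was 12, and 5 to 14 when single libraries were left out. With ABA it was 17, and 9 to 18 without single libraries, and averaged it was 24, and 22 to 30. The shares of all genes without single libraries ran from 8.82% to 19.3% in mock, 14.1% to 22.7% with ABA and 27.9% to 34.6% averaged. With the replicate block the member counts were 19, 21 and 29, beside 25.3%, 30.3% and 40.9% of all genes. That moved the count in mock by over 1.5 times and the others by less. Other normalizations, tools and filters gave 11 to 14, 13 to 20 and 23 to 27 members. The shares of all genes were then 13.5% to 19.1%, 17.9% to 25% and 27.4% to 35.9%. Of the recomputed log2 fold changes of called members, 838 kept significance, 92 lost it and 0 changed sign. Splicing calls were 0 under each alternative, the replicate block included, except 2 with no filter on mean PSI. The cause of these changes was not tested. Few ABA reads limit the precision of some ratios.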
